A study of Mus musculus with 8 samples.

Results

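The genes described here are 10 mouse cathepsins (Ctsa, Ctsb, Ctsc, Ctsd, Ctsf, Ctsh, Ctsk, Ctsl, Ctss and Ctsz), taken by gene symbol from count files that list 24421 symbols; all 10 were found and all 10 were among the 11519 genes with enough counts to be tested. They were measured by RNA sequencing in 8 libraries of bone marrow-derived macrophages (BMDM), all treated with interleukin 4 (IL-4), a cytokine of alternative macrophage activation, for 24 h. The 4 CKO libraries (replicates 2, 6, 7 and 8) are labelled OPA1f/f; Lyz2-Cre, and the 4 FLOX libraries (replicates 3, 4, 6 and 7) are labelled OPA1f/f. Both groups therefore share the floxed alleles of Opa1, which encodes a GTPase of the inner mitochondrial membrane, and the IL-4, and they differ in the Cre driver, a transgene in the Lyz2 locus that is active in myeloid cells. Deletion of Opa1, presence of the driver and any unrecorded batch that follows genotype cannot be told apart, and without an unstimulated library nothing here measures the effect of IL-4. The sources used here give neither the age nor the number of the mice, so p-values measure only the spread between libraries, which may be technical. In bulk RNA, fewer cells of a type and less RNA per cell cannot be told apart.

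Cathepsins are proteases of the endosome and lysosome that are made as inactive proforms, sorted by mannose 6-phosphate receptors or sortilin and activated in acid compartments. Most are cysteine proteases of the papain family, while cathepsin D is an aspartic protease and cathepsin A a serine carboxypeptidase. In macrophages they degrade phagocytosed and autophagic cargo, process antigen and its chaperone invariant chain, and, when secreted, cut matrix proteins. The transcription factors TFEB, TFE3 and MITF drive many lysosomal genes through an E-box, CACGTG.

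Of the 10 cathepsins 9 fell in CKO and none rose, by the quasi-likelihood test of edgeR at 0.05 after adjustment over all genes, where 21.6% of all tested genes were lower and 23.8% higher. The exception was Ctsc, and the count of rises was also 0 at an unadjusted p of 0.05, in DESeq2 and in limma-voom. For 8 of the 10 every CKO library lay below every FLOX library, which held for 20% of all tested genes, and for none did every CKO library lie above every FLOX library, against 22.7% of all tested genes. The median log2 fold change of the 10 was -0.48, beside -0.02 over all tested genes. Falls were moderate: only Ctsk and Ctsf also changed by at least 1.5-fold, a rule that 4.90% of all tested genes met on the lower side, and Ctsl, at 66.9% of FLOX, stood just outside it. Levels are given as CPM, read pairs scaled to a common library size after TMM factors.

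**Figure D1:**
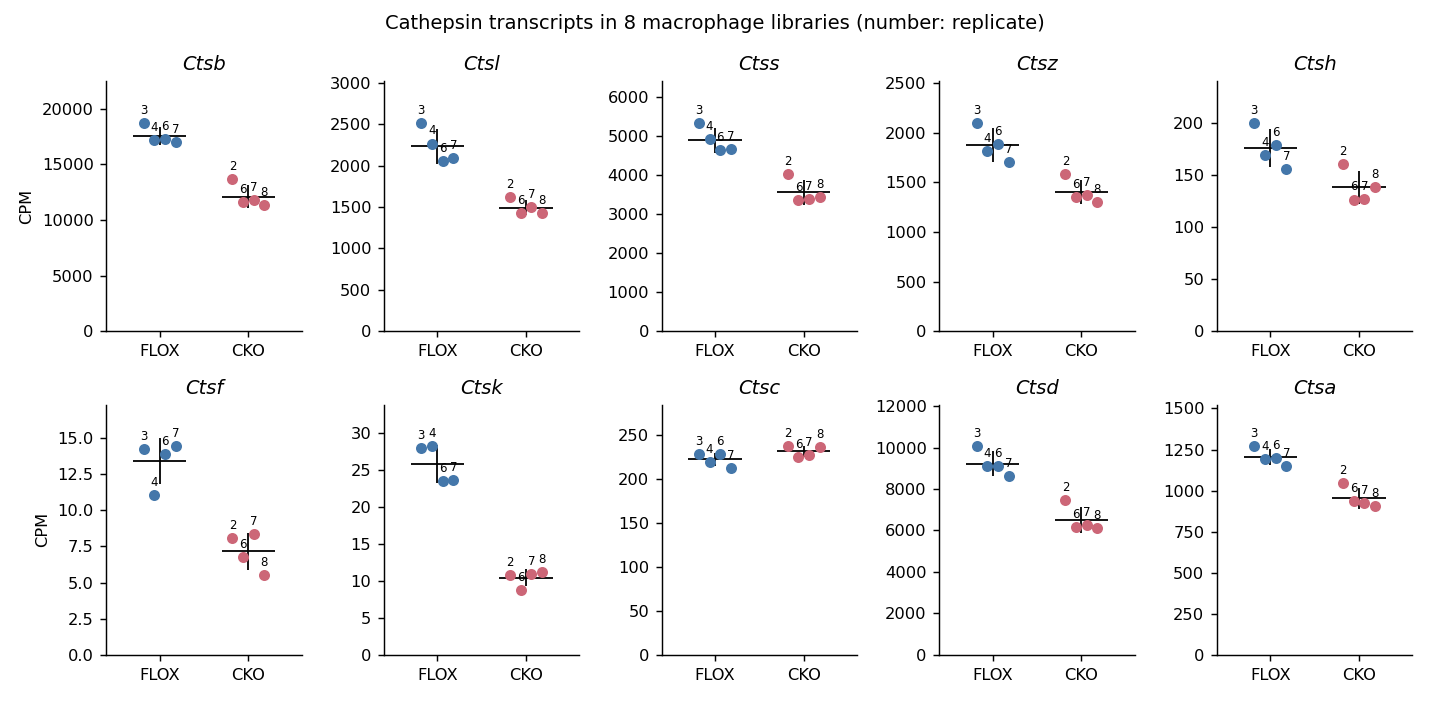
CPM of each cathepsin on axes that start at 0, with 1 point per library labelled by its replicate number, FLOX in blue and CKO in red, and a black cross for the mean and SD of 4 libraries. The CKO points lie below all FLOX points in 8 panels and overlap them in those of Ctsh and Ctsc. In the panel of Ctsc the CKO mean stands slightly above the FLOX mean.

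Some facts of the whole series bear on these values. Assigned read pairs numbered 11764855 to 18939948 per library, of which 355956 to 678800 came from the 10 cathepsins. The gene that carries the driver, Lyz2, ranged between 1809 and 2387 CPM in CKO against 6906 to 8294 CPM in FLOX and so separated the labels without exception. Opa1 ranged between 94.6 and 105 CPM in CKO against 104 to 130 CPM in FLOX (log2 fold change -0.19, adjusted p from edgeR = 0.0544). That value sits at the threshold: 4 of 20 alternatives called Opa1 lower, with adjusted p from 0.00139 (-0.29, without FLOX replicates 3 and 6) to 0.0496 (without FLOX replicate 6). Without FLOX replicate 7 the log2 fold change was -0.12. With libraries scaled by total counts alone it was -0.088 (adjusted p from edgeR = 0.389). Such gene totals do not resolve a deleted exon and check nothing about the deletion. On the second principal component, which held 13.5% of the variance, FLOX replicates 3 and 6 stood apart from FLOX replicates 4 and 7, while on the first, which held 73.2%, the gap between the groups was narrowest at CKO replicate 2 and FLOX replicate 6. Among the cathepsins CKO replicate 2 was the highest CKO library for 8 of 10, and FLOX replicate 3 the highest FLOX library for 8 of 10. All 9 calls stood without FLOX replicates 3 and 6, and likewise without CKO replicate 2 and FLOX replicate 6, both chosen after seeing the data.

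The labelled cell type was present by its marker Adgre1, which encodes F4/80 and ranged from 1143 to 1209 CPM in CKO and from 1145 to 1191 CPM in FLOX. Other macrophage markers did differ: Csf1r, Cd68 and Mertk fell and Fcgr1 rose, as given below. The extraction protocol speaks of pancreatic islets, but all 6 islet markers listed, insulin genes included, had 0 counts in every library. Since Ctsk is also made by osteoclasts and fibroblasts, their markers were read beside it. Calcr, the calcitonin receptor of osteoclasts, had 0 counts everywhere and Oscar at most 3. The 8 osteoclast markers, resting on Itgb3 and Nfatc1, summed to 210 to 223 CPM in CKO and 234 to 270 CPM in FLOX. Of the 5 tested osteoclast markers 3 fell, where 21.6% of all tested genes were lower. The 7 fibroblast markers summed to 1.15 to 2.35 CPM in CKO and 1.26 to 1.46 CPM in FLOX, with Lum at 0. Their part in the fall of Ctsk was not tested.

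Upstream sequence of the genes was read from RefSeq on GRCm38.p6, the assembly also called mm10, because MiT/TFE factors act through a short motif and these factors were lower in CKO too. RefSeq windows of 300 bases, from 250 before to 50 after a start, were at hand for 8 of the 10 genes. The E-box CACGTG, which reads the same on both strands, was in the windows of 4 of these 8 (Ctsa, Ctsd, Ctsf and Ctsl), against 12.1% of 8895 tested genes with a window and 7.15% of all 32851 windows. With a T before it or an A after it (TCACGTG on either strand, always an E-box as well) it was found in Ctsa and Ctsd only, beside 7.18% of those tested genes. The AP-1 motif TGACTCA (either strand; 4.51% of the tested genes) and a STAT motif (TTC and GAA with 4 bases between them; 6.67%) were in none of the 8. A match describes letters in a window and is neither a shown binding site nor a cause. The stretches of 30 bases that hold each E-box are shown with the motif in capitals.
Ctsa, chr2:164833757-164833786, plus strand: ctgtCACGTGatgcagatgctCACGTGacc
Ctsd, chr7:142388048-142388077, minus strand: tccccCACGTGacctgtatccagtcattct
Ctsd, chr7:142387908-142387937, minus strand: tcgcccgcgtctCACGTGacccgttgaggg
Ctsl, chr13:64370739-64370768, minus strand: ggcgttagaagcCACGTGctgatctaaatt
Ctsf, chr19:4855074-4855103, plus strand: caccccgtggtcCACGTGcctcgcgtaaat

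Ctsa and Ctsd hold 2 E-boxes each. In Ctsa the first begins 12 bases before the second of its RefSeq starts and the other lies just past it. In Ctsd they begin 245 and 98 bases before the RefSeq start. By GENCODE both genes begin further upstream, Ctsa at 164832873 and Ctsd, on the minus strand, at 142388038. The Ctsa stretch and the second Ctsd stretch thus lie inside the annotated genes. So does the Ctsl stretch, since by GENCODE Ctsl, on the minus strand, begins at 64370890. The RefSeq start of Ctsl lies 214 bases from the nearest GENCODE start of that gene, so the distance of its E-box from transcription is uncertain. For contrast, the 250 bases before the start are given for the gene with the largest fall, Ctsk, and for the one that was not called, Ctsc; neither holds any of the motifs searched, so no base is in capitals.
Ctsk, chr3:95498960-95499209, plus strand: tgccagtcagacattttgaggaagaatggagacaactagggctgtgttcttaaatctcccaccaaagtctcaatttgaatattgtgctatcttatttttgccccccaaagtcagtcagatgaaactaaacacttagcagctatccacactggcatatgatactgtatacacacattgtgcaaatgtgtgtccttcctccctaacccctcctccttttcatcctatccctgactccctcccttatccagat
Ctsc, chr7:88277835-88278084, plus strand: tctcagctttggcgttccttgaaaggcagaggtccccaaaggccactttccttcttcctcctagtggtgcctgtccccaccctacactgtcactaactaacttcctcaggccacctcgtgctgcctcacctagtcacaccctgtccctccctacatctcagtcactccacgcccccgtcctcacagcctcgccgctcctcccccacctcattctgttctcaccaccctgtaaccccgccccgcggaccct

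The cysteine endopeptidases fell in all 5 cases. Cathepsin B (Ctsb, ENSMUSG00000021939, chromosome 14, 63122462 to 63145923), which also trims dipeptides from carboxyl ends, was the most abundant of the 10 by CPM and ranked 2 among all genes. It read 13678, 11606, 11798 and 11334 CPM in CKO replicates 2, 6, 7 and 8 and 18746, 17164, 17317 and 17045 CPM in FLOX replicates 3, 4, 6 and 7. CKO replicate 2 and FLOX replicate 3 were the high libraries of their groups, and the groups did not overlap. The level in CKO came to 68.9% of that in FLOX (95% interval 60.4% to 78.6%; log2 fold change -0.54 ± 0.08 SE, adjusted p from edgeR = 0.000131). Exons of Fdft1, on the other strand, overlap those of Ctsb, but Fdft1 had 362 to 701 counts against 163185 to 320723 for Ctsb.

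Cathepsin L (Ctsl, ENSMUSG00000021477, chromosome 13, 64359337 to 64370890), a broad endopeptidase of lysosomal turnover, stood at 1617, 1430.1, 1497 and 1432 CPM in CKO replicates 2, 6, 7 and 8. FLOX replicates 3, 4, 6 and 7 held 2518, 2266, 2061 and 2090.2 CPM. Every CKO library was thus below every FLOX library, and the mean was 1494 ± 87.4 CPM against 2234 ± 210 CPM (SD, n = 4 per group). The test gave a log2 fold change of -0.58 (± 0.08 SE, adjusted p from edgeR = 6.77e-05). An antisense gene and a pseudogene that overlap its exons in GENCODE are not among the symbols of the files.

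Cathepsin S (Ctss, ENSMUSG00000038642, chromosome 3, 95526786 to 95556403) stays active at neutral pH and removes invariant chain from MHC class II in antigen-presenting cells. Its CKO values were 4027, 3360.2, 3396 and 3447 CPM and its FLOX values 5341, 4917, 4634 and 4663 CPM, in the same order of replicates. The groups did not overlap, and CKO replicate 2 stood well above the other CKO libraries. CKO held 72.8% of the FLOX level (interval 63.7% to 83.2%; adjusted p from edgeR = 0.00047).

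Cathepsin K (Ctsk, ENSMUSG00000028111), a strong collagenase best known from osteoclasts, lies beside Ctss on chromosome 3 (95499256 to 95509362) and had the largest fall of the 10. CKO replicates 2, 6, 7 and 8 read 10.8, 8.77, 10.9 and 11.2 CPM, from 129 to 177 read pairs each. FLOX replicates 3, 4, 6 and 7 read 27.9, 28.1, 23.4 and 23.6 CPM, from 332 to 434 read pairs. The groups were far apart: the highest CKO library held less than any FLOX library by a wide margin, and CKO replicate 2, high for most cathepsins, was not high here. The level was 40.5% of FLOX (interval 34.0% to 48.2%; log2 fold change -1.30 ± 0.10 SE, adjusted p from edgeR = 1.52e-06), and 56 of the 11519 tested genes had a lower fold change. Its interval did not overlap those of the adjacent Ctss or of any other cathepsin except Ctsf.

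Cathepsin F (Ctsf, ENSMUSG00000083282, chromosome 19, 4855130 to 4860918), a cysteine endopeptidase of macrophages that can also degrade invariant chain, was the scarcest of the 10 by CPM. It stood at 8.05, 6.79, 8.32 and 5.53 CPM in CKO and at 14.2, 11.04, 13.9 and 14.4 CPM in FLOX, from 82 to 257 read pairs per library. FLOX replicate 4 was low within its group but still above every CKO library. The mean fell to 53.4% of FLOX (interval 42.5% to 67.0%; log2 fold change -0.91 ± 0.13 SE, adjusted p from edgeR = 0.000157).

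The cysteine exopeptidases divided. Cathepsin Z (Ctsz, ENSMUSG00000016256, chromosome 2, 174427493 to 174439039), a carboxypeptidase that trims single residues, ranged from 1301 to 1581 CPM in CKO and from 1701 to 2099.9 CPM in FLOX, with no overlap. Its log2 fold change was -0.42 (± 0.08 SE, adjusted p from edgeR = 0.00119). Exons of Nelfcd on the opposite strand overlap it, with 340 to 592 counts against 18865 to 34980. Cathepsin H (Ctsh, ENSMUSG00000032359, chromosome 9, 90054152 to 90076089), mainly an aminopeptidase, ranged from 127 to 161 CPM in CKO and from 156 to 201 CPM in FLOX. Here the groups overlapped, since CKO replicate 2 (161 CPM) exceeded FLOX replicate 7 (156 CPM), although the test called the gene lower (log2 fold change -0.35 ± 0.09 SE, adjusted p from edgeR = 0.00739).

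Cathepsin C (Ctsc, ENSMUSG00000030560, chromosome 7, 88278085 to 88310888), a dipeptidyl peptidase that activates the granule serine proteases of neutrophils, mast cells and cytotoxic lymphocytes, was the only one of the 10 not called. CKO replicates 2, 6, 7 and 8 read 237, 224, 227 and 236 CPM, and FLOX replicates 3, 4, 6 and 7 read 228, 219, 228 and 213 CPM. The groups overlapped and differed by about as much as the libraries within them. CKO stood at 104% of FLOX with an interval from 95.1% to 114% (log2 fold change 0.06 ± 0.05 SE, adjusted p from edgeR = 0.403), which lies above the intervals of the other 9. With libraries scaled by total counts alone, Ctsc passed the threshold as higher (log2 fold change 0.16, adjusted p from edgeR = 0.0251). Of its known substrates, Elane, Gzma and Gzmb had 0 counts in every library, which allows up to 0.162 to 0.251 CPM (3 counts per library; counting error only), and Prtn3 had at most 2 counts.

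The 2 cathepsins of other catalytic classes fell as well. Cathepsin D (Ctsd, ENSMUSG00000007891, chromosome 7, 142375911 to 142388038), the main aspartic protease of lysosomes, read 7473, 6154, 6258 and 6131 CPM in CKO and 10054, 9117, 9111 and 8607 CPM in FLOX. CKO replicate 2 was high, yet the groups did not overlap, and CKO held 70.5% of the FLOX level (interval 61.3% to 81.2%; log2 fold change -0.50 ± 0.08 SE, adjusted p from edgeR = 0.000344). Cathepsin A (Ctsa, ENSMUSG00000017760, chromosome 2, 164832873 to 164841032), a carboxypeptidase that also holds beta-galactosidase and neuraminidase 1 together as their protective protein, ranged from 907 to 1044 CPM in CKO and from 1152 to 1269 CPM in FLOX. Its fall was the smallest of the 9 (log2 fold change -0.34 ± 0.06 SE, adjusted p from edgeR = 0.00108). Exons of 2 genes on the other strand overlap Ctsa, and both fell further: Pltp by 1.02 on the log2 scale (adjusted p from edgeR = 5.57e-06) and Neurl2 by 0.94 (adjusted p from edgeR = 1.47e-05). Pltp had 3966 to 10832 counts per library and Neurl2 121 to 336, against 12454 to 22151 for Ctsa. Pltp is thus more abundant relative to Ctsa than the overlapping genes of Ctsb and Ctsz are relative to these. How many bases or reads the genes share was not measured. Whether the counting used strand is not stated, and the part of Pltp and Neurl2 in the value of Ctsa was not tested.

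**Figure D2:**
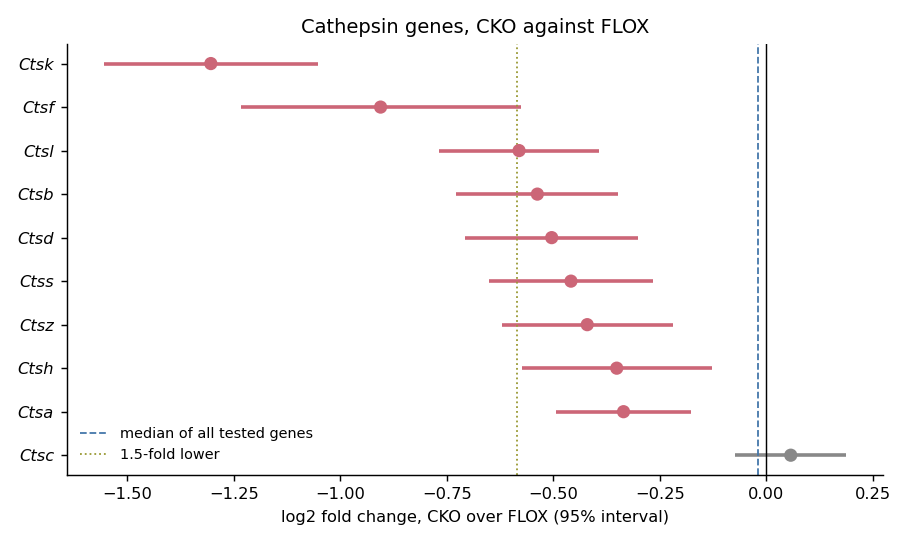
Log2 fold change of CKO over FLOX for each cathepsin (point) with its 95% interval (line), red where the adjusted p is under 0.05 and grey where it is not; the dashed line is the median of all tested genes and the dotted line marks a 1.5-fold lower level. Ctsk (-1.30) and Ctsf (-0.91) lie farthest left, 7 genes lie between -0.58 and -0.34, and Ctsc (0.06) lies at the right.

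Together the 10 genes took 2.60% to 3.03% of all assigned read pairs in CKO and 3.46% to 3.86% in FLOX, before any scaling by TMM factors. On the CPM scale the sum was 29836, 25206, 25621 and 24943 in CKO replicates 2, 6, 7 and 8 and 40499, 36901, 36651 and 35665 in FLOX replicates 3, 4, 6 and 7. CKO replicate 2 stood above the other CKO libraries but below every FLOX library. The mean of the sums in CKO was 70.5% of that in FLOX, and Ctsb and Ctsd made up 70.0% to 72.1% of the sum in every library. The sum of 32 other lysosomal genes was 79.2% of FLOX. All of these encode hydrolases except Npc2, whose product binds cholesterol. The ratio of the cathepsin sum to that sum was 2.72 to 2.89 in CKO and 3.04 to 3.25 in FLOX, again without overlap.

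Levels of different genes were compared per kilobase of transcript (the shortest of the best-ranked APPRIS principal transcripts in GENCODE M21). In FLOX Ctsd led with 4336 ± 284 CPM per kb, and Ctsb (3704 ± 167) and Ctss (3608 ± 242) came next without differing beyond their spread (SD, n = 4 per group). Ctsz (1303 ± 116), Ctsl (1133 ± 106) and Ctsa (330 ± 13.4 CPM per kb) followed, the first 2 of them within their spread of each other. Far lower stood Ctsh (109 ± 11.6), Ctsc (89.0 ± 3.04), Ctsk (17.0 ± 1.73) and Ctsf (6.76 ± 0.80 CPM per kb). In CKO Ctss (2625 ± 233) and Ctsb (2552 ± 225 CPM per kb) changed places, within their spread. So did Ctsc (92.6 ± 2.46) and Ctsh (85.6 ± 9.74 CPM per kb), also within their spread. Ctsk came down to 6.89 ± 0.74 CPM per kb. Levels and, for Ctsb, the order depend on the length used. Over the union of annotated exons, Ctsb (2903) stood below Ctss (3600 CPM per kb) in FLOX. Ctsl came to 344 CPM per kb there and kept its place.

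The make-up of the cathepsin pool shifted little in its large parts. By level per kb, Ctsd held 29.6% ± 0.33 of the pool in FLOX and 29.3% ± 0.33 in CKO, and Ctss 24.7% ± 0.47 and 25.2% ± 0.39 (SD, n = 4 per group), with overlapping ranges in both cases. Ctsb went from 25.3% ± 0.54 to 24.5% ± 0.23, with ranges that did not overlap by a narrow margin. Among the small parts, Ctsk went from 0.116% ± 0.009 to 0.066% ± 0.008 and Ctsc from 0.609% ± 0.027 to 0.893% ± 0.063, in opposite directions and both without overlap. Ctsa (2.25% ± 0.05 in FLOX, 2.51% ± 0.06 in CKO) and Ctsh (0.744% ± 0.040 in FLOX, 0.821% ± 0.041 in CKO) also rose without overlap, Ctsh by a narrow margin. The ranges of Ctsz, Ctsl and Ctsf overlapped. These shares are descriptions without a test, and a share of one gene depends on all the others.

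**Figure D3:**
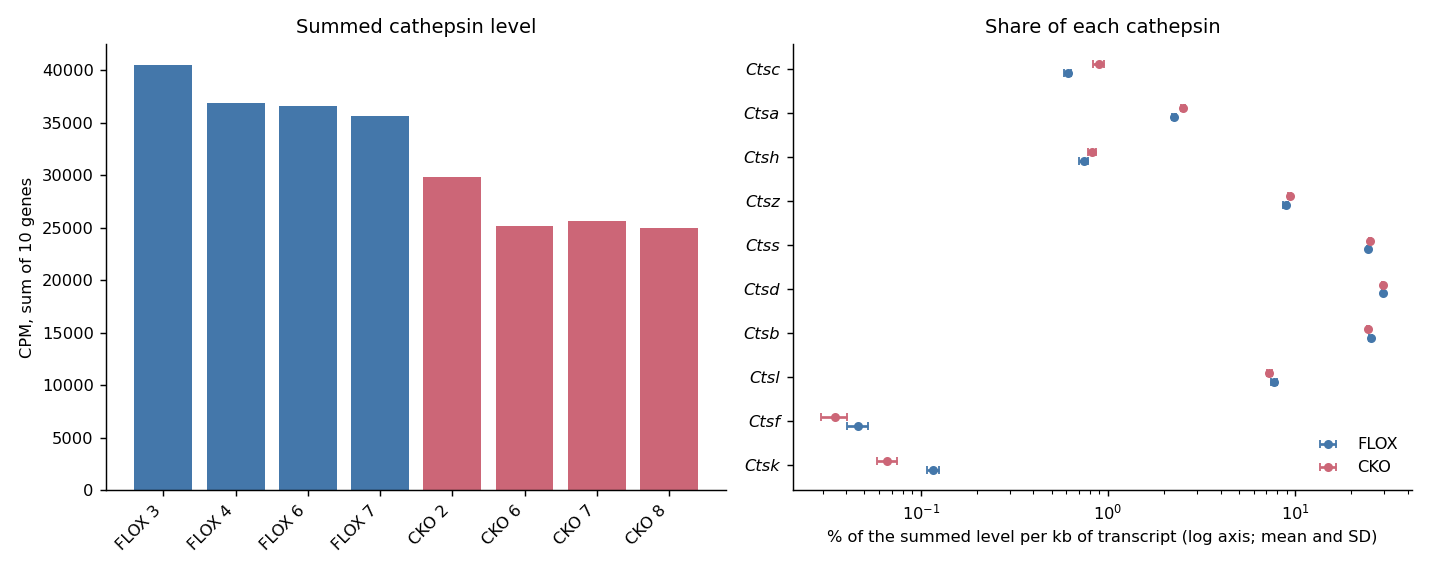
Left, sum of the CPM of the 10 cathepsins in each library, FLOX in blue and CKO in red, on an axis from 0; right, share of each cathepsin in the pool by level per kb, mean and SD of 4 libraries on a log axis. The 4 CKO bars (24943 to 29836 CPM) stand below the 4 FLOX bars (35665 to 40499 CPM), and on the right the colours part most for Ctsk and Ctsc.

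Within groups, most cathepsins varied together across libraries. Of the 45 pairs of genes, 30 had a Pearson correlation above 0.5 between their deviations from the group means of log2 CPM over the 8 libraries. Among the 7 genes other than Ctsc, Ctsf and Ctsk all 21 pairs lay between 0.75 and 0.99, the closest being Ctsa with Ctsd. Ctsf and Ctsk stood apart, with a correlation of -0.20 between them, and Ctsk was nearest to Ctsl (0.65). These correlations describe few libraries that share depth and scaling, and pairs of other genes were not correlated for comparison. The 5 tested genes outside the family whose log2 CPM followed the log2 cathepsin sum most closely over the 8 libraries were Pnpla2, Grb2, Rnase4, Pea15a and Ms4a7, each with a Pearson r above 0.99 that includes the difference between the groups. Pnpla2, the first lipase of triglyceride breakdown, for example had 69.6 ± 6.85 CPM in CKO against 112 ± 8.72 CPM in FLOX (SD, n = 4 per group).

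Other members of the family in the files were scarce or were not called. Of 13 further cathepsin genes 9, which include the placental cathepsins Ctsj, Ctsm, Ctsq and Ctsr, had 0 counts in every library. Ctsg, a granule protease of neutrophils, and Ctsw, found in cytotoxic lymphocytes, had at most 3 counts per library. The 2 that could be tested were not called by edgeR, DESeq2 or limma-voom, nor at an unadjusted p of 0.05. Ctso, a little-studied papain-family member, ranged from 78.7 to 87.6 CPM in CKO and from 82.8 to 94.3 CPM in FLOX (log2 fold change -0.11 ± 0.06 SE, adjusted p from edgeR = 0.184). The aspartic protease gene Ctse ranged from 7.18 to 12.8 CPM in CKO and from 9.53 to 13.5 CPM in FLOX (log2 fold change -0.29 ± 0.17 SE, adjusted p from edgeR = 0.198), and it passed the threshold without CKO replicate 2 (-0.44, adjusted p from edgeR = 0.0443), without CKO replicate 2 and FLOX replicate 6 (-0.52, 0.0241) and without FLOX replicates 3 and 6 (-0.52, 0.0178). Without CKO replicate 6 it was -0.16.

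Inhibitors of cysteine cathepsins moved both ways: 2 of 6 tested genes fell and 2 rose, where 21.6% of all tested genes were lower and 23.8% higher. The median of these inhibitors was 0.15 on the log2 scale. The abundant ones fell. Cystatin C (Cst3), a secreted inhibitor, ranged from 753 to 929 CPM in CKO and from 993 to 1256 CPM in FLOX (log2 fold change -0.45 ± 0.09 SE, adjusted p from edgeR = 0.00111). Cystatin B (Cstb), its cytosolic relative, ranged from 416 to 467 and from 522 to 694 CPM (log2 fold change -0.43, adjusted p from edgeR = 0.001). In contrast cystatin F (Cst7), which is carried to lysosomes and inhibits cathepsins C, H and L there, read 36.0, 34.0, 31.5 and 35.6 CPM in CKO and 21.3, 16.6, 19.98 and 16.4 CPM in FLOX. Every CKO library was thus above every FLOX library (log2 fold change 0.88 ± 0.09 SE, adjusted p from edgeR = 1.18e-05). Ctla2b, which resembles the propeptide of a cathepsin, rose from 7.49 ± 0.70 to 10.7 ± 0.45 CPM (SD, n = 4 per group; log2 fold change 0.51, adjusted p from edgeR = 0.000923). Its close relative Ctla2a (0.46, adjusted p from edgeR = 0.193) and the serpin gene Serpina3g (-0.16, adjusted p from edgeR = 0.473) were not called, and reads of Ctla2a and Ctla2b may be split between them.

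Of 12 genes that sort or process cathepsins 7 fell and none rose (1 higher at an unadjusted p of 0.05, 0 higher by DESeq2 and by limma-voom), with a median of -0.23. The shares over all tested genes were 21.6% lower and 23.8% higher. Prosaposin (Psap), the precursor of the saposins, which binds procathepsin D, fell from 21753 ± 1073 to 12443 ± 1847 CPM (SD, n = 4 per group; log2 fold change -0.81 ± 0.10 SE, adjusted p from edgeR = 3.31e-05). Legumain (Lgmn), the asparaginyl protease that cuts several cathepsins into 2 chains, ranged from 799 to 996 CPM in CKO and from 1417 to 1600.3 CPM in FLOX (log2 fold change -0.79 ± 0.08 SE, adjusted p from edgeR = 7.94e-06). The adaptors Gga2 (-0.34) and Gga3 (-0.29), which load mannose 6-phosphate receptors at the Golgi, fell less.

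The MiT/TFE transcription factor genes, all 4 of them, fell without overlap of the groups. Tfeb stood at 52.6, 46.7, 46.8 and 45.8 CPM in CKO and at 94.1, 83.7, 84.5 and 78.9 CPM in FLOX, or 56.2% of FLOX (interval 49.8% to 63.4%). Mitf changed by -0.53 (± 0.09 SE, adjusted p from edgeR = 0.00054), Tfe3 by -0.32 (± 0.07 SE, adjusted p from edgeR = 0.00219) and Tfec by -0.30 on the log2 scale (± 0.06 SE, adjusted p from edgeR = 0.00242). Transcript levels do not show whether the proteins were in the nucleus, where they act.

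Among 32 other lysosomal genes, all for hydrolases except Npc2 (-0.52), 24 fell and 1 rose. Of all tested genes 21.6% were lower and 23.8% higher, and the median of the 32 was -0.29. Those with the smallest p included the galactosylceramidase Galc (-0.71), the dipeptidyl peptidase Dpp7 (-0.65) and the acid glucosidase Gaa (-0.66), which fell. The arylsulfatase Arsb was the one that rose (0.47 ± 0.06 SE, adjusted p from edgeR = 3.73e-05), from 65.4 to 73.3 CPM in FLOX to 92.2 to 98.2 CPM in CKO. 
Of 6 tested partners and substrates of single cathepsins 2 fell and none rose (0 also at an unadjusted p of 0.05, by DESeq2 and by limma-voom). Over all tested genes 21.6% were lower and 23.8% higher. Cd74, the invariant chain that Ctss degrades, ranged from 577 to 719 CPM in CKO and from 696 to 900.5 CPM in FLOX (log2 fold change -0.36 ± 0.10 SE, adjusted p from edgeR = 0.00799). The groups overlapped for it through CKO replicate 2 and FLOX replicate 7. Of the class II gene H2-Eb1 the log2 fold change was 0.05 (± 0.09 SE, adjusted p from edgeR = 0.686), it turned below 0 without FLOX replicate 4 or 7, and it passed the threshold as higher without FLOX replicates 3 and 6 (0.23, adjusted p from edgeR = 0.01). The enzymes that cathepsin A protects stood at -0.20 for Glb1 (± 0.07 SE, adjusted p from edgeR = 0.0418) and -0.21 for Neu1 (± 0.08 SE, adjusted p from edgeR = 0.0545). Both lie at the threshold: 11 of 20 alternatives lost the call of Glb1, among them all fits without 1 library except those without CKO replicate 2 or FLOX replicate 7. Neu1 was called in 7 of 20, among them the fits without CKO replicate 2, FLOX replicate 4 or FLOX replicate 7.

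**Figure D4:**
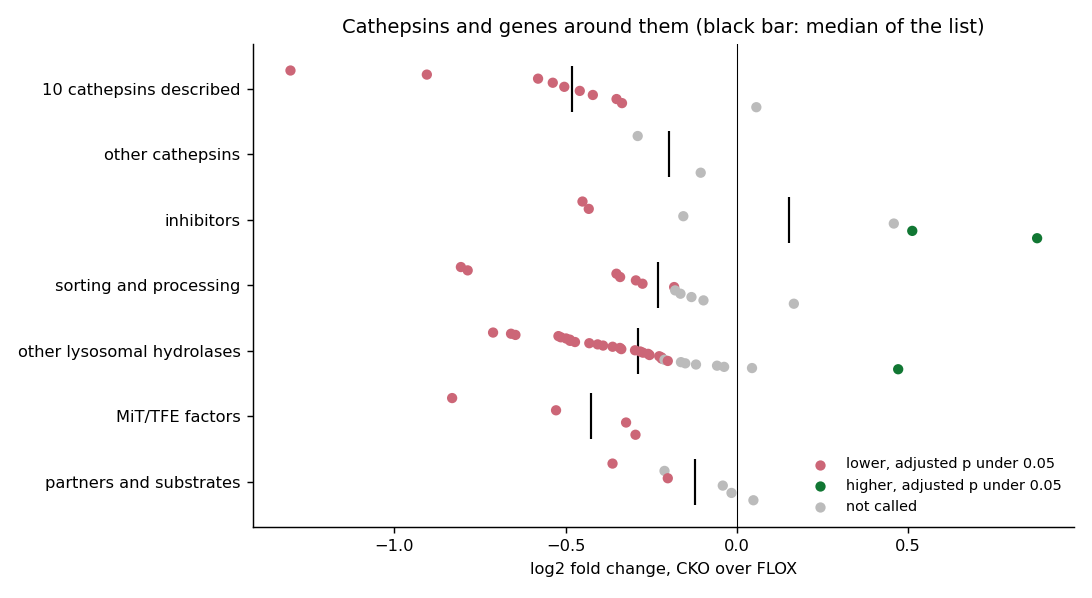
Log2 fold change of CKO over FLOX for every tested gene of each list (point), red where lower and green where higher at an adjusted p under 0.05, grey where not called, with a black bar at the median of the list. The described cathepsins have 9 red points and a median of -0.48, the 4 MiT/TFE factors are all red, and the inhibitors hold 2 red and 2 green points.

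Markers of other myeloid cells also differed between the groups. The 5 monocyte markers summed to 978 to 1115 CPM in CKO and 1185 to 1586 CPM in FLOX, but S100a4, which fell, made up most of that sum. Ccr2 rose from 33.5 ± 3.13 to 72.8 ± 7.99 CPM (SD, n = 4 per group). The 5 neutrophil markers in the files summed to 118 to 147 CPM in CKO and 217 to 313 CPM in FLOX, almost all of it Csf3r, which fell, with Elane at 0. The others stood higher in CKO at low levels: S100a9 rose (log2 fold change 1.55 ± 0.32 SE, adjusted p from edgeR = 0.00183), S100a8 was not called (0.80, adjusted p from edgeR = 0.0695), and Mpo, too scarce to test, had a mean of 0.382 CPM in CKO and 0.062 CPM in FLOX. The median of the 3 tested neutrophil markers was 0.80 on the log2 scale, opposite in sign to the change of their sum. The 7 macrophage markers summed to 6812 to 7325 CPM in CKO and 7536 to 7967 CPM in FLOX. Of these 3 (Csf1r, Cd68 and Mertk) fell while Fcgr1 rose, where 21.6% of all tested genes were lower and 23.8% higher. The 6 dendritic cell markers reached 4.04 CPM in sum at most, those of mast cells and basophils 1.01 CPM and those of lymphocytes 0.33 CPM. The part of other cell types in the cathepsin values was not tested.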

How the data were processed

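For each of the 8 libraries the authors deposited raw counts per gene symbol, as whole numbers. HISAT2 2.0.5, HTSeq and mm10 are named in the submitters' processing notes, without annotation or strand setting. A joint table with equal values and 27 altered gene names was not used further. HTSeq's unassigned classes were left out; 66.3% to 71.7% of pairs were assigned.

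In R 4.3.3 with edgeR 4.0.16, genes passing filterByExpr (minimum count 10, minimum total 15) were scaled by TMM and the groups compared by the robust quasi-likelihood test, with Benjamini-Hochberg adjustment across the 11519 genes and a threshold of 0.05. The SE is the log2 fold change over the root of F, and 95% intervals rest on t with 6 degrees of freedom. Tests were checked on simulated data. Every pair of libraries within a group differed beyond counting noise (chi-square over its degrees of freedom 2.45 to 27.9).

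Members, lists and alternatives were chosen with earlier results of these data known. Named genes are the 10 cathepsins, Opa1, Lyz2, every tested further cathepsin, inhibitor and MiT/TFE factor, and in the 3 other lists up to 4 genes of smallest p. Outside it stand genes overlapping the cathepsins, markers and untested genes. Alternatives were RLE, upper-quartile and total-count scaling, TMM without the 20 most abundant genes, no filter, 1 CPM in 4 libraries, DESeq2 1.42.0, limma-voom (limma 3.58.1), edgeR without robust settings, each library left out, a replicate block and a 1.5-fold rule. Positions and lengths come from GENCODE M21 (GRCm38), promoter windows from RefSeq (GRCm38.p6).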

Additional observations from a re-analysis of the deposited data

Results flagged for a closer look

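In 13 of 74 groups of 4 libraries checked, 1 library lay far from the other 3 (a gap above Dixon's 95% critical value, which chance gives in about 1 of 20 groups). CKO replicate 2 was the high library for Ctsd (7473 CPM, others 6131 to 6258), Ctss (4027, others 3360.2 to 3447), the summed cathepsins (29836, others 24943 to 25621), Psap (15208, others at most 11681), Lgmn (996), Tfeb (52.6), Gaa (110.4) and Cd74 (719 CPM), and the low one for Ctla2a (0.838 CPM). FLOX replicate 3 was high for Ctsb (18746 CPM, others 17045 to 17317) and Glb1 (189 CPM). FLOX replicate 4 was low for Ctsf (11.04 CPM, others 13.9 to 14.4), and CKO replicate 6 was low for Ctsk (8.77 CPM, others 10.8 to 11.2). Flags on CKO replicate 2 are not independent of each other, since they come from 1 library.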

How the results depend on the processing

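Of 200 values of the 10 cathepsins under 20 alternatives, 199 kept direction and call, and all 9 falls were called in each. The exception was Ctsc under total-count scaling, where 1 cathepsin was higher. That scaling shifts the median of all genes by 0.10 (log2). Relative to that median the cathepsin median was -0.46, as with TMM, which follows nearly by construction because rescaling shifts all genes about alike. Under total-count scaling 1556 genes were lower and 3612 higher (69.9% of calls higher, against 52.4% with TMM). The 1.5-fold rule left 2 lower cathepsins.

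With libraries left out in turn, 9 cathepsins were lower and 0 higher each time, the log2 ratio of the cathepsin sums ran from -0.54 to -0.46, and genes lower and higher numbered 1782 to 2491 and 2491 to 2885. H2-Eb1 ran from -0.011 to 0.117 (-0.0029 without FLOX replicate 4, -0.011 without FLOX replicate 7). The replicate block, possible only through numbers 6 and 7, left 9 cathepsins lower and 1518 genes lower and 1985 higher in all; the labels do not say that numbers pair libraries, and deviations correlated by 0.18 for number 6 and -0.10 for number 7. It ended the calls of Tfec (-0.20, adjusted p = 0.212) and Glb1 (-0.22, adjusted p = 0.119) and gave one for Ctse (-0.53, adjusted p = 0.014). Depth limits Ctsk and Ctsf most, at 82 to 434 pairs per library.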
